A study of Sus scrofa with 80 samples.

Results

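The genes described here code for the proteasome and for the E2 enzymes that conjugate ubiquitin. They were chosen by name, as the genes with 1 symbol in the array annotation that begins with PSMA to PSMG or with UBE2, leaving out PSMB8, PSMB9 and PSMC3IP. The rule gave 63 genes of the 6765 with a symbol on the array. Of these, 39 belong to the proteasome and 24 are E2 enzymes. The proteasome genes are 7 of the alpha ring and 8 of the beta ring of the 20S core, 5 ATPases and 12 other genes of the 19S regulatory particle, 4 activators and 1 inhibitor, and 2 assembly chaperones. Where a gene had several probesets, the probeset of highest mean was used, which concerned 16 genes.

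The arrays came from 16 prepuberal pigs, each sampled in 5 tissues. There were 4 pigs of each of 4 breeds: Large White, a lean sire line, Duroc, a maternal line, Youli, a prolific maternal line with Landrace and Chinese-European ancestry, and Iberian, an unimproved fat breed. Each breed had 2 males and 2 females, except Youli with 3 males and 1 female, so the gonads were 9 testes and 7 ovaries. Mean age at slaughter was 87 days in Large White, 83 in Duroc, 80 in Youli and 89 in Iberian, and mean weight was 27.2, 23.1, 18.9 and 17.4 kg in the same order. The pigs were fattened together and fasted before slaughter, and none received a treatment. The tissues were hypothalamus, adenohypophysis, thyroid gland, gonad and backfat, and the organs compared here number 6 because testis and ovary were kept apart. Each value is a normalized log2 signal of 1 probeset on 1 array, so a difference of 1 is a doubling of signal. Levels were compared between organs for the same gene and never between genes.

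In the ubiquitin system an E1 enzyme activates ubiquitin, an E2 enzyme carries it, and an E3 ligase directs it to a substrate. Proteins that carry a ubiquitin chain are bound by the 19S particle, unfolded by its ATPases and cut inside the 20S core by catalytic beta subunits. Other activators can replace the 19S particle at the ends of the core: PSME1 and PSME2 form an activator induced by interferon, PSME3 forms a nuclear one, and PSME4 (PA200) is known for its role in sperm formation. Most of these genes are active in every cell, and some E2 enzymes serve a particular process, such as UBE2C, which works with the anaphase-promoting complex in mitosis.

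Defining markers were high in the organ named on the label, with exceptions that touch results below. The library labelled ovary of the Iberian female IBF25 had FST at 2.22, HSD17B1 at 2.88, ZP3 at 2.22, DPPA5 at 1.97 and AMH at 1.69, and each of these genes was at 7.15 or more in the 6 remaining ovaries. Muscle genes differed widely between the backfat arrays: CKM was at 14.57 in the Youli male YLM19, 11.04 in DUM12, 10.92 in DUF14, 7.92 in LWF06 and 7.05 in IBF22, and at 2.24 to 5.79 in the other 11, and MYLPF and TNNC2 were also higher in these 5 arrays than in all others. The backfat of YLM19 also had the sperm gene PRM1 at 7.55. INSL3, at 13.88 to 14.67 in the testes, was at 7.60 in the backfat of YLM19 and 7.21 in that of LWF06. In all other backfat arrays it was at 1.98 to 2.07. Pituitary hormone transcripts were high in the thyroid of YLM20 (GH1 14.70), in the thyroid of YLM19 (GH1 11.04) and in the hypothalamus of YLM19 (GH1 10.93). The summed signal of 4 adipocyte markers in thyroid ran from 9.82 to 13.61, against 14.07 to 15.79 in backfat, and its part in the thyroid results was not tested. LEP in backfat (median 2.72) and FOXL2 in ovary were near the lowest signals of the arrays. The arrays of 4 animals (IBF22, IBM23, LWF05 and LWM04) stood apart from the other 12 on the first principal component in hypothalamus, adenohypophysis, thyroid and backfat, and not in gonads. Their hybridization controls were lower without overlap in hypothalamus (9.78 to 10.02 against 10.11 to 10.96) and thyroid, overlapped with the others in adenohypophysis (9.99 to 10.18 against 9.58 to 10.91) and backfat (10.10 to 10.39 against 10.07 to 10.89), and were at the high end in gonads (10.71 to 10.86 against 9.45 to 10.75). The labels give no batch that they share. The results that rest on these arrays are given with and without them.

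All 63 genes reached a mean of at least 5 in some organ, and 60 did so in each of the 6 organs. The exceptions were UBE2QL1, UBE2C and UBE2D4, whose means lay under 5 in some or most organs. UBE2D4 reached 5 in backfat only (5.23), where YLM19 was at 9.42 and the other arrays at 4.57 to 5.56. All 63 differed between organs (limma moderated F, adjusted p under 0.05), as did 94.5% of all 23999 probesets tested, so the test alone set no gene apart. The range of the 6 organ means had a median of 1.11 over the 63 genes, 1.18 over all probesets and 1.81 over the 14727 probesets that reached 5 in some organ. The range was under 1 in 27 genes (42.9%), compared with 43.9% of all probesets and 19.3% of those that reached 5. By the median these genes varied less between organs than the probesets that reached 5. The 6 genes with a range over 2 were UBE2QL1, UBE2C, PSME4, PSMD5, UBE2T and PSMD10.

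**Figure D1:**
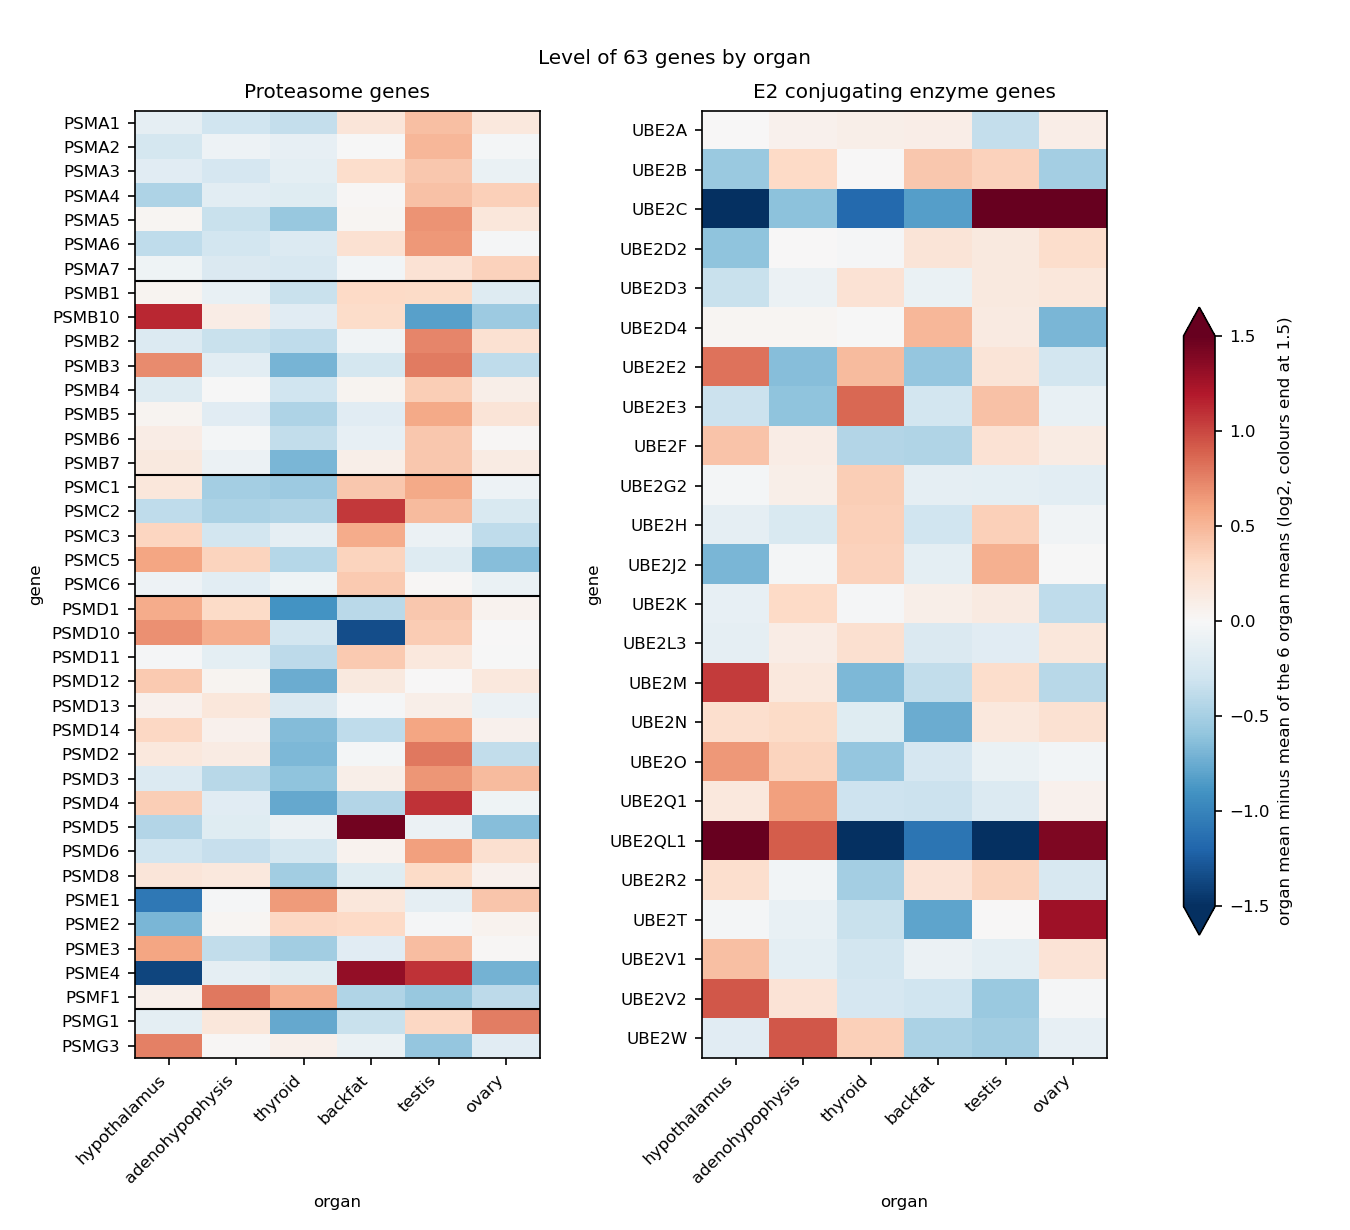
Heat map of the 63 genes (rows, by role) in 6 organs (columns), with colours ending at 1.5 in either direction. Colour gives the mean log2 signal of an organ minus the mean over the 6 organs of that gene. The testis column is mostly above 0 and the thyroid column mostly below 0 for the 20S and 19S genes, and UBE2QL1 and UBE2C have the widest rows of the E2 enzymes.

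Of the 39 proteasome genes, 19 had their highest mean in testis and 22 their lowest in thyroid, counts given without a share of all probesets. Each organ was then compared with the mean of the other 5, with breed as covariate, and a gene was called at an adjusted p under 0.05 and a difference of at least 0.5 on the log2 scale. These 6 comparisons share their arrays and are not independent. The shares given beside the counts are of all 23999 probesets. Only 14727 of these reached 5 in some organ, as all 63 genes did, so the shares are not matched for signal. In testis 20 of the 63 genes were higher (17.7% of all probesets) and 6 lower (17.6%), and the median difference was 0.34, compared with -0.02 over all probesets. In thyroid 4 were higher (15.8%) and 22 lower (16.9%), with a median difference of -0.32 compared with -0.01. A lower level in such bulk samples cannot be told apart from a smaller share of the cells that express the gene.

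The 20S core followed this order. In testis 8 of its 15 genes were higher (17.7% of all probesets) and 1 was lower (17.6%), with a median difference of 0.53. The largest difference was that of PSMB3 (+0.92, SE 0.14), followed by PSMB2 (+0.89, SE 0.06) and PSMA5 (+0.81, SE 0.07). For PSMB3, testis was only 0.07 above hypothalamus, its next organ, and the arrays overlapped. PSMA5, an alpha ring gene, had the widest range of its ring (1.25): its lowest, median and highest values were 8.87, 9.09 and 9.52 in testis, 8.31, 8.72 and 8.78 in ovary, and 7.49, 7.85 and 8.39 in thyroid. No ovary reached the lowest testis for PSMA5, and the same held for PSMA6 in testis against backfat, its next organ. In thyroid all 15 differences were negative, and 4 passed the size limit (16.9% of all probesets were called lower). These were PSMB3 (-0.84), PSMB7 (-0.82), PSMA5 (-0.69) and PSMB5 (-0.56). PSMB5 and PSMB7 are catalytic subunits. The alpha ring gene PSMA7 and the beta ring gene PSMB1 varied least within their rings, and PSMA7 medians ran only from 11.14 in thyroid to 11.77 in ovary.

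PSMB10 did not follow the rest of the core. It codes for a catalytic subunit of the immunoproteasome, the form that replaces constitutive subunits after exposure to interferon. Its values in hypothalamus were 7.94, 8.48 and 9.14 (lowest, median, highest), and 5.81, 6.56 and 7.18 in testis. Hypothalamus was 1.36 above the other organs (SE 0.10, adjusted p = 1.61e-20) and testis 0.97 below them, and the hypothalamus and testis arrays did not overlap. PSMB10 was the 1 core gene called lower in testis.

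The 19S particle showed the same contrast between testis and thyroid. In thyroid all 17 differences were negative and 10 were called lower (16.9% of all probesets), with a median of -0.54. In testis 7 were higher (17.7%) and none lower (17.6%), with a median of 0.46. PSMD1, a scaffold subunit of the base, was at 8.24, 8.60 and 9.40 in thyroid and at 9.52, 10.08 and 10.49 in hypothalamus. Its thyroid difference was -1.08 (SE 0.07, adjusted p = 4.31e-23). PSMD2, the other large scaffold, was highest in testis (10.41, 11.06 and 11.56) and lowest in thyroid (9.29, 9.51 and 9.96), 0.95 above and 0.81 below the respective other organs. PSMD4, a receptor for ubiquitin chains, was 1.26 higher in testis (SE 0.19, adjusted p = 3.94e-08) and 0.93 lower in thyroid. Without the 16 arrays of the 4 animals that stood apart, these PSMD4 differences were 1.01 and -0.79. PSMD13, a lid subunit, varied least, with organ means within 0.38.

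PSMD5 and PSMD10, which are chaperones that help to assemble the 19S base, differed from the subunits and from each other. PSMD5 was highest in backfat, where its values were 9.33, 10.53 and 10.97, against 8.66, 8.96 and 9.77 in thyroid and 8.19, 8.39 and 8.65 in ovary. The backfat difference was 1.73 (SE 0.07, adjusted p = 1.51e-34). The lowest of the 16 backfat values was the YLM19 array, and the difference was 1.81 without it and 1.78 without the 5 backfat arrays with the most muscle transcripts. PSMD10 was lowest in backfat (6.12, 6.51 and 7.10), 1.60 below the other organs (SE 0.08, adjusted p = 3.73e-30; -1.56 without those 5 arrays), and highest in hypothalamus (8.01, 8.57 and 9.24). For PSMD10 the backfat and hypothalamus arrays did not overlap.

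Among the 5 ATPases, backfat rather than testis had the highest median difference (0.48), and all 5 were positive there. PSMC2 in backfat was at 10.70, 11.11 and 11.48 and 1.28 above the other organs (SE 0.05, adjusted p = 2.41e-34; 1.23 without the 5 backfat arrays with muscle transcripts), and PSMC3 was 0.67 above them. The PSMC2 result depended on the probeset, because the other 2 probesets of the gene had their highest means in hypothalamus (10.57 and 8.68). PSMC6 was the most even of the ATPases. PSMC1 was lower in adenohypophysis (-0.61, SE 0.05) and in thyroid (-0.65), and PSMC5 was lower in ovary (-0.76, SE 0.06).

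**Figure D2:**
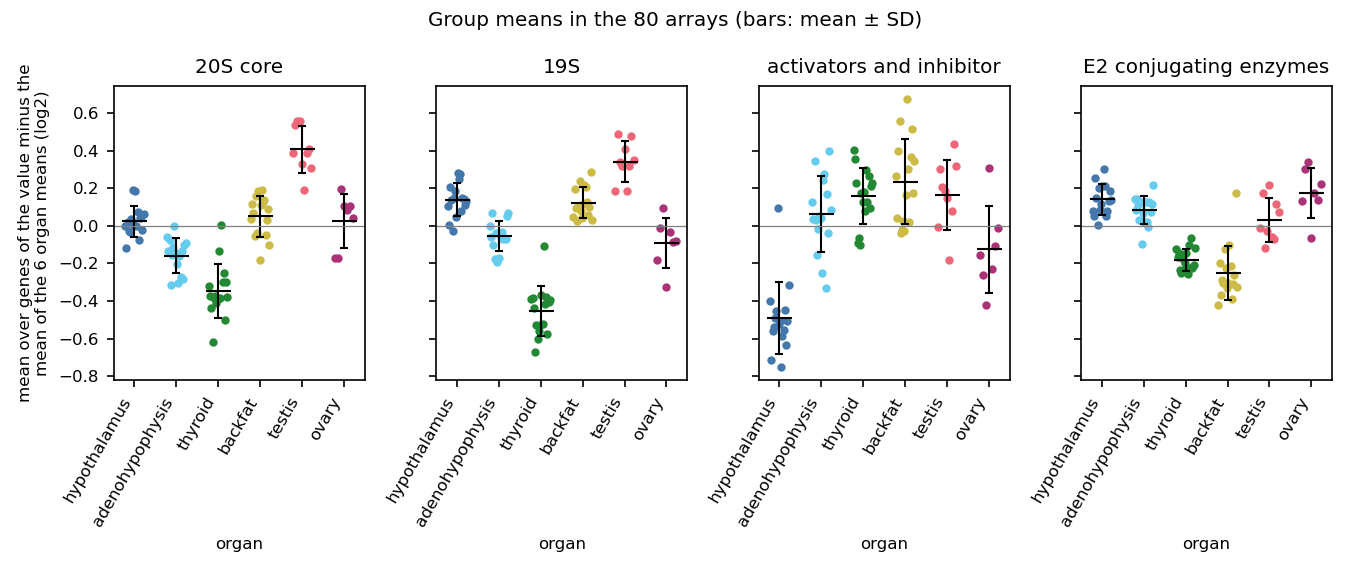
Mean deviation of the genes of a group from their 6-organ means (y axis, log2) in each array, by organ (x axis), for the 20S core, the 19S particle, the activators and inhibitor, and the E2 enzymes. Each point is 1 array, and bars give the mean ± SD of the organ. Testis points of the 20S core lie between 0.19 and 0.56 and thyroid points between -0.62 and 0.01.

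Per array, the mean deviation of the 15 core genes was 0.41 ± 0.12 in testis (SD, n = 9) and -0.35 ± 0.14 in thyroid (SD, n = 16), with no overlap. For the 17 genes of the 19S particle it was 0.34 ± 0.11 and -0.45 ± 0.13. The highest thyroid value of both groups remained under the lowest testis value. For the core, the means of hypothalamus (0.02) and backfat (0.05) lay between these organs. Their arrays (-0.12 to 0.19 and -0.18 to 0.19) overlapped with each other and with the top of the thyroid range (-0.62 to 0.01).

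The activators went in different directions from the core and from each other. PSME4 had the widest range of all proteasome genes, 2.70 between organ means. Its lowest, median and highest values were 7.80, 8.37 and 9.39 in backfat, 7.25, 8.26 and 9.15 in testis, 5.59, 6.44 and 7.02 in ovary, and 5.02, 5.76 and 6.30 in hypothalamus. Backfat was 1.59 (1.46 without the 5 arrays with muscle transcripts) and testis 1.26 above the other organs, and hypothalamus was 1.66 below them (SE 0.11, adjusted p = 7.54e-24). Backfat and testis overlapped, and no hypothalamus array reached the lowest backfat or testis array. PSME1 was lower in hypothalamus (-1.29, SE 0.10) and higher in thyroid (+0.76, SE 0.10). PSME2, its partner in the same activator, was also lower in hypothalamus (-0.82), whereas PSME3 was higher there (+0.71). The inhibitor PSMF1 was higher in adenohypophysis (+0.95, SE 0.06), with values of 8.18, 8.38 and 8.53, and in thyroid (+0.66), and lower in testis (-0.70) and backfat (-0.54). The lower level of PSMF1 in testis was smaller with the gene's more variable probeset (-0.34, adjusted p = 0.0146), under the size limit.

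The assembly chaperones of the core were measured for PSMG1 and PSMG3. PSMG1 was higher in ovary (+0.93, SE 0.13; +1.13 without IBF25) and lower in thyroid (-0.92, SE 0.09). PSMG3 was higher in hypothalamus (+0.91, SE 0.07), where its values from 8.01 to 8.46 lay above all arrays of the other organs, and lower in testis (-0.69).

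The 24 E2 enzymes had no shared order of organs. In thyroid 2 were higher (8.33%, compared with 15.8% of all probesets) and 6 lower (25%, compared with 16.9%), and in testis 3 (12.5%, compared with 17.7%) and 3 (12.5%, compared with 17.6%). In hypothalamus 7 were higher (29.2%, compared with 18.2%) and 4 lower (16.7%, compared with 24.9%), and in backfat 1 (4.17%, compared with 15.9%) and 7 (29.2%, compared with 21%). The widest range of any gene, 6.75, belonged to UBE2QL1, a member of the UBE2Q family. Its values were 8.42, 9.05 and 9.51 in hypothalamus, 4.46, 6.65 and 7.44 in ovary, 4.81, 6.17 and 6.84 in adenohypophysis, 2.63, 3.78 and 5.95 in backfat, 1.96, 2.94 and 4.34 in testis and 1.94, 2.25 and 2.95 in thyroid. All hypothalamus arrays lay above all arrays of the other organs, with a difference of 4.64 (SE 0.20, adjusted p = 2.27e-33). Ovary and adenohypophysis overlapped, as did backfat, testis and thyroid. Values under 5 are dim on this array, so the size of the difference against thyroid (-3.46 from the other organs) or testis (-2.59) is less certain than its direction.

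UBE2C was highest in the gonads. Its values were 6.57, 8.71 and 9.12 in ovary and 6.15, 7.13 and 7.86 in testis, against 3.65, 4.57 and 5.83 in adenohypophysis and 2.39, 2.67 and 3.34 in hypothalamus. Ovary was 3.95 above the other organs (SE 0.22, adjusted p = 1.28e-25; 4.21 without IBF25), and testis 2.06 above them (SE 0.20). The lowest testis lay above the highest array of each non-gonadal organ. The 4 measured proliferation markers were also highest in the gonads. Their summed signal was 10.61 to 12.61 in ovary and 10.29 to 11.70 in testis, and 6.92 to 8.01 in hypothalamus. Its medians in adenohypophysis, backfat and thyroid were 8.64, 8.87 and 8.91. The UBE2C means of these organs ran in the opposite order (4.57, 4.35 and 4.01). UBE2T, the E2 of the Fanconi anaemia repair pathway, was also higher in ovary (+1.51, SE 0.17; +1.85 without IBF25) and lower in backfat (-0.95, SE 0.12). The part of dividing cells in these differences was not tested.

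Hypothalamus had the largest number of E2 enzymes called, and also the largest share of all probesets called (18.2% higher and 24.9% lower). UBE2V2, which pairs with UBE2N to build non-degradative chains, was at 10.72, 10.91 and 11.11 there, above every array of adenohypophysis, the next organ, and 1.11 above the mean of the others (SE 0.04, adjusted p = 4.45e-36). Its relative UBE2V1 was 0.54 higher and UBE2E2 was 0.98 higher. The UBE2V1 result depended on the probeset. Another probeset of the gene was also highest in hypothalamus (7.74), and a further probeset was lowest there (5.82) and highest in ovary (7.85). UBE2M and UBE2F, the pair of E2 enzymes that carry the ubiquitin-like protein NEDD8, were 1.26 (SE 0.18) and 0.52 higher. UBE2M was 1.45 higher without the 16 arrays that stood apart. Lower in hypothalamus were UBE2C, UBE2J2 (-0.83, SE 0.06), an enzyme of the endoplasmic reticulum, UBE2D2 (-0.73) and UBE2B (-0.67). Another UBE2D2 probeset was also lowest in hypothalamus (9.96), whereas a further probeset had 9.96 there and was lowest in ovary (9.74).

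UBE2E3 was higher in thyroid (11.21, 11.83 and 12.19) than in the other organs by 1.04 (SE 0.06, adjusted p = 2.85e-24), and its 3 probesets all had their highest mean there. UBE2E2 was also higher in thyroid (+0.57) and lower in adenohypophysis (-0.76, SE 0.07), where UBE2E3 was lower too (-0.72). UBE2W, which places ubiquitin on the amino terminus of proteins, was higher in adenohypophysis (6.66, 7.26 and 7.56, +1.11, SE 0.10). UBE2Q1 was higher there as well (+0.74, SE 0.05). In backfat UBE2N was 0.89 lower (SE 0.05). UBE2D4 was called higher in backfat (+0.59) from 1 array: YLM19 had 9.42 and the other 15 had 4.57 to 5.56. In ovary UBE2D4 was lower (-0.81, SE 0.23; -0.78 without that backfat array). UBE2A was the most even E2 enzyme, with organ means within 0.45.

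The counts over all 63 genes differed less from the background in the remaining organs. In hypothalamus 14 of 63 were higher (18.2% of all probesets) and 9 lower (24.9%), and in adenohypophysis 5 (16.4%) and 5 (18.9%). In backfat 5 were higher (15.9%) and 10 lower (21%), and in ovary 5 (15.4%) and 6 (15.4%). The array medians were 0.161 lower in backfat and 0.135 higher in ovary than in the other organs. When every array was centred on its median, 12 genes were higher and 6 lower in backfat, and 4 and 12 in ovary, while the counts of the other 4 organs did not move. Without the 16 arrays that stood apart, the counts of higher and lower genes were 15 and 10 in hypothalamus, 5 and 5 in adenohypophysis, 5 and 22 in thyroid, 5 and 9 in backfat, 21 and 6 in testis and 5 and 7 in ovary. Without the hypothalamus, thyroid and backfat of YLM19 and the thyroid of YLM20, thyroid had 4 and 21 and backfat 4 and 12. Without the 5 backfat arrays with the most muscle transcripts, backfat had 5 and 14 and testis 22 and 6. The counts after centring and without arrays are given without the share of all probesets under the same setting. Centring shifts all probesets of an array alike, so the turn in backfat and ovary is not particular to these genes.

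**Figure D3:**
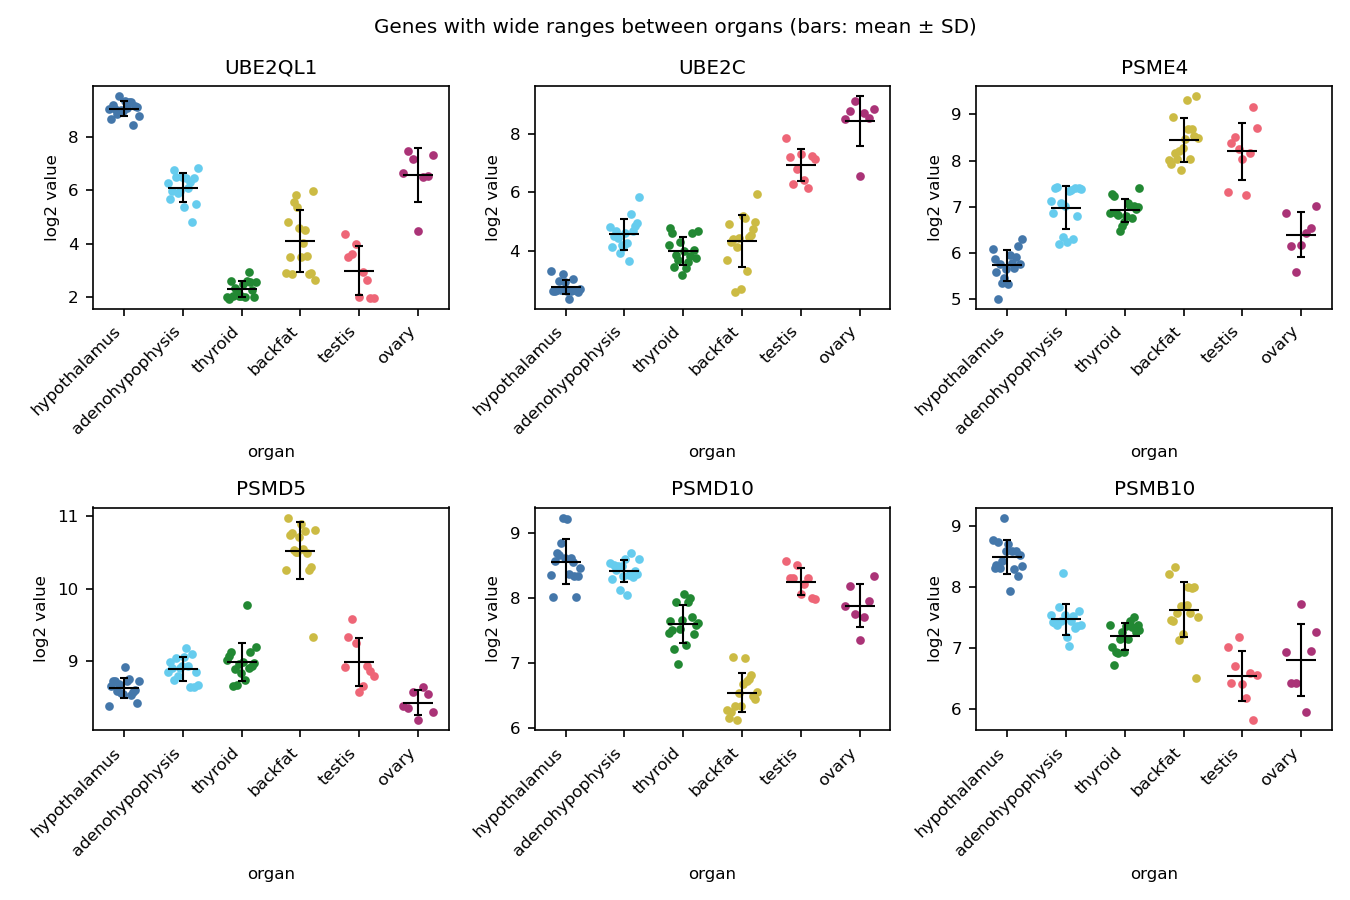
Log2 signal (y axis) of UBE2QL1, UBE2C, PSME4, PSMD5, PSMD10 and PSMB10 in each of the 80 arrays by organ (x axis), 1 panel per gene, with the mean ± SD of the organ as bars. UBE2QL1 in hypothalamus lies above 8.4 in all 16 arrays, and UBE2C lies above 6.1 in the gonads only.

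The direct comparison of testis and ovary asked which of these genes differ between male and female gonads. With breed as covariate, 30 of the 63 genes were higher in testis (15% of all probesets) and 6 lower (13.2%), with a median difference of 0.29 compared with 0.02 over all probesets (limma, adjusted p under 0.05). Of the proteasome genes 21 were higher and 1 lower, including 12 of the 15 core genes and 8 of the 17 of the 19S particle, none of them lower. Of the 24 E2 enzymes 9 were higher and 5 lower. Leaving out 1 animal at a time gave 30 to 38 genes in all, and the 38 were found without IBF25, whose library labelled ovary lacked ovarian markers.

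Among the genes higher in testis, PSME4 had the largest difference, 1.66 (SE 0.25, adjusted p = 3.82e-04). Its values were 7.32 and 8.38 in the Duroc testes, 8.02 and 7.25 in Large White, 8.17, 9.15 and 8.71 in Youli and 8.50 and 8.26 in Iberian, and 6.87, 6.16, 6.44, 6.54, 7.02, 5.59 and 6.17 in the ovaries. All testes lay above all ovaries. PSMD4 was at 9.55 to 10.14 in the testes and 8.25 to 8.96 in the ovaries, a difference of 1.13 (SE 0.09, adjusted p = 3.70e-06). PSMD2 was at 10.41 to 11.56 and 9.69 to 9.93, a difference of 1.12 (SE 0.14). PSMB3 differed by 1.13 (SE 0.24, adjusted p = 0.00407), and 1 ovary at 6.39 exceeded the lowest testis at 6.34. UBE2D4 differed by 0.86 (SE 0.20) at a dim level. UBE2B, a homologue of yeast RAD6 known for its role in sperm formation, was at 10.74 to 11.43 in the testes and 9.74 to 10.49 in the ovaries.

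The 6 genes lower in testis were UBE2QL1 (-3.47, SE 0.46, adjusted p = 1.51e-04), UBE2C (-1.51, SE 0.34, adjusted p = 0.00517), UBE2V2 (-0.53), UBE2A (-0.48), PSMG3 (-0.37) and UBE2L3 (-0.31). UBE2QL1 was at 1.96 to 4.34 in the testes and at 6.48 to 7.44 in 6 ovaries, with IBF25 at 4.46, and the difference was -3.87 without IBF25. UBE2C was at 6.15 to 7.86 in the testes and 8.48 to 9.12 in the same 6 ovaries, with IBF25 at 6.57, and the difference was -1.78 without it. The UBE2A difference was -0.12 (adjusted p = 0.562) with the more variable probeset of that gene.

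The testes and ovaries did not overlap in 10 genes. PSMA3, PSMA5, PSMA6, PSMC2, PSMC5, PSMD2, PSMD4, PSME4 and UBE2B were higher in all testes (9 genes, compared with 5.14% of all probesets), and UBE2QL1 was lower (1 gene, compared with 4.02%).

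**Figure D4:**
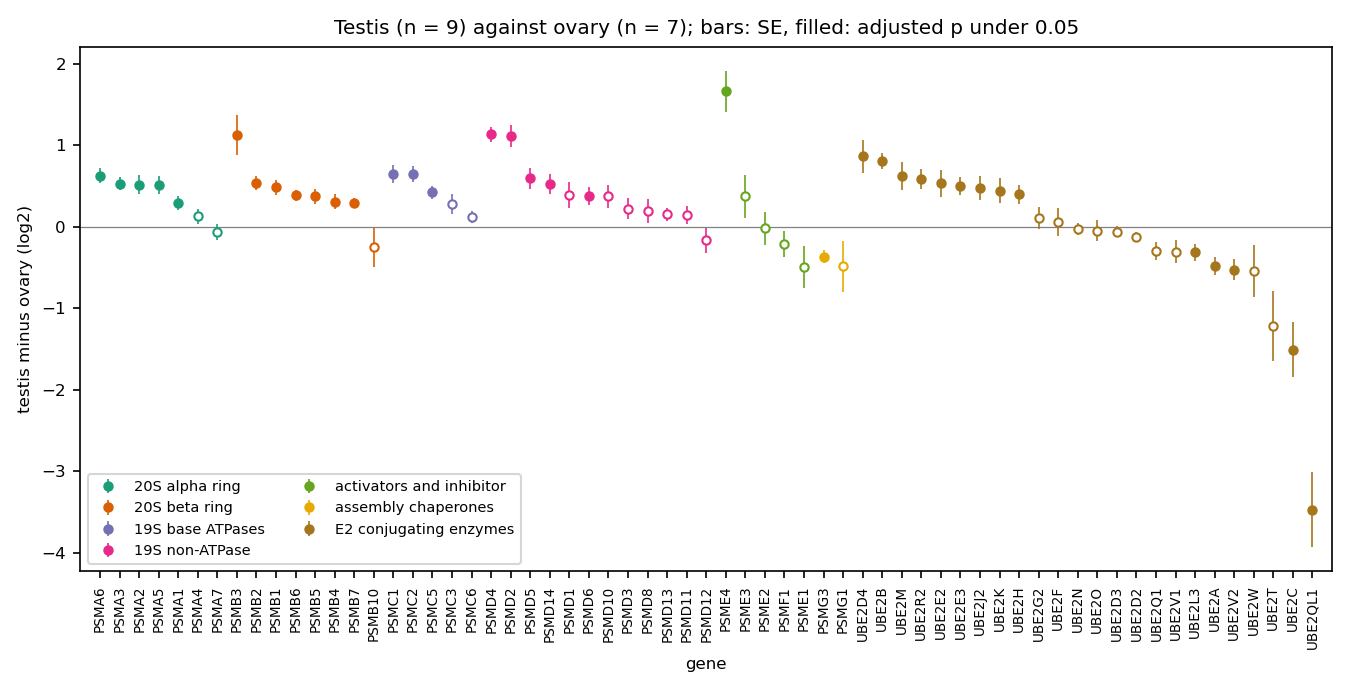
Testis minus ovary (y axis, log2) for the 63 genes (x axis, coloured by role), with the SE as error bar and filled points at an adjusted p under 0.05. Filled points of the 20S core and 19S particle all lie above 0, PSME4 is highest at 1.66 and UBE2QL1 lowest at -3.47.

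The testes themselves were not uniform. The protamine PRM1, made in late spermatids, was at 9.24 to 12.03 in the testes of LWM02, YLM19 and YLM20 and at 2.33 to 2.49 in the other 6. This split was made on a marker and not on a label, and the values are a description. In the 3 testes with PRM1, 10 of the 63 genes were higher than in all 6 others (9.74% of probesets), and 5 were lower (7.65%). UBE2W was at 6.41 to 7.31 in the 3 and at 4.69 to 5.69 in the 6, and UBE2J2 at 8.18 to 8.43 and 7.17 to 7.96. PSMG1 had means of 9.23 and 8.33, and UBE2B was at 11.23 to 11.43 and 10.74 to 11.03. PSMC2, PSMD2, PSMD8, PSMF1, UBE2F and UBE2K were also higher. Lower were UBE2QL1 (1.96 to 2.01, against 2.62 to 4.34), PSMA4, PSMD10, PSME1 and PSME2. PSME4 overlapped between these testes, at 8.02 to 9.15 in the 3 and 7.25 to 8.50 in the 6. Its highest values were those of YLM19 (9.15) and YLM20 (8.71), both with PRM1. The part of spermatids in its testis level was not tested.

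Genes of the same particle also varied together between arrays of an organ. After the organ mean was removed, the median correlation between pairs of genes over 80 arrays was 0.406 in the alpha ring, 0.268 in the beta ring, 0.343 among the ATPases and 0.161 among the other 19S genes. It was 0.070 among the E2 enzymes and 0.015 among all 5472 genes that reached 5. Without the 16 arrays that stood apart these values were 0.348, 0.316, 0.293, 0.235, 0.093 and 0.017. The pairs share animals, libraries and normalization, and the values are a description.

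Within organs 4 members had an r over 0.5 with interferon-response genes. These were PSME1, PSME2 and PSMB10, described above as linked to interferon, and PSMB4, which was not. The mean of 5 measured interferon-response genes (ISG15, MX1, IRF1, PSMB8 and TAP1) correlated within organs with PSME2 (r = 0.818 over 80 arrays), PSME1 (0.705), PSMB10 (0.629) and PSMB4 (0.506), whereas the median over the 63 genes was -0.067. Among the 5 response genes, PSMB8 is itself a proteasome gene, left out of the 63 by the rule. Of all genes that reached 5, 1.94% had an r over 0.5. High values in 2 arrays contributed to the correlations of the members. In the hypothalamus of IBM23, PSME1 was at 9.82 (7.71 to 9.21 in the other 15), PSME2 at 9.60 (7.13 to 8.17) and PSMB10 at 9.14 (7.94 to 8.78). MX1 was at 12.01 there, and the lymphocyte gene CD2 was at 8.04 (2.77 to 4.69 in the others), CD3E at 3.56 (2.16 to 2.32) and PTPRC at 5.23 (4.05 to 5.10). In the library labelled ovary of IBF25, PSME1 was at 11.66 (9.48 to 10.19 in the other 6), PSME2 at 9.52 (8.03 to 8.73) and PSMB10 at 7.72 (5.95 to 7.26). CD2 at 3.56 and CD3E at 2.89 were within the range of the other ovaries there, and PTPRC at 4.37 was above it (3.08 to 4.32). Without both arrays the correlations were 0.733 for PSME2, 0.622 for PSME1, 0.581 for PSMB10 and 0.489 for PSMB4.

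PSMD4, PSMD3 and UBE2M were the members most affected by the 4 animals that stood apart. Each was lower in these 4 than in all 12 others in hypothalamus, adenohypophysis, thyroid and backfat (3 genes, compared with 0.383% of all probesets), and no member was higher in all 4 tissues (0.158%). The 4 animals were picked after their values were seen, so these values carry no test. PSMD4 in adenohypophysis was at 7.19 to 7.44 in the 4 animals and at 8.70 to 9.33 in the others, and in backfat at 6.84 to 7.63 and 8.31 to 9.48. PSMD3, a lid subunit, was at 6.13 to 6.83 and 7.77 to 8.30 in thyroid. UBE2M was at 6.94 to 7.88 and 8.79 to 9.51 in hypothalamus, and at 5.92 to 6.29 and 7.42 to 8.22 in backfat. In the gonads of the same animals all 3 genes overlapped with the others, with PSMD4 at 8.73 to 9.92 against 8.25 to 10.14. The 4 animals are 2 Large White and 2 Iberian, 1 male and 1 female of each. A cause of this pattern was not tested.

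**Figure D5:**
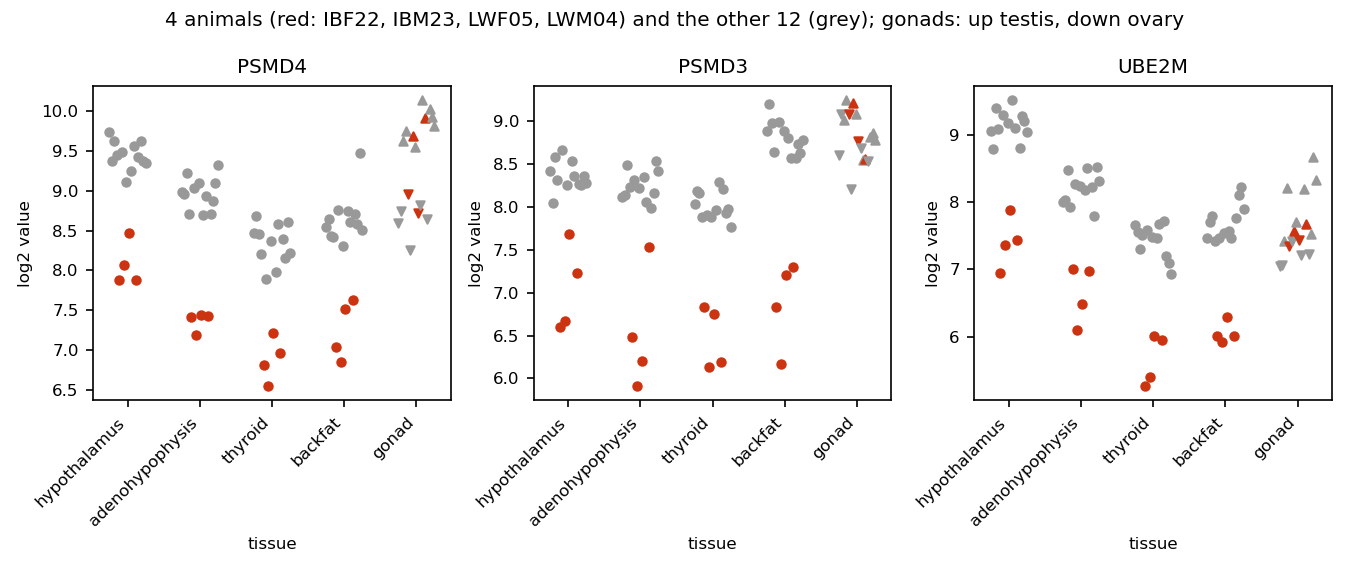
Log2 signal (y axis) of PSMD4, PSMD3 and UBE2M in each animal, by tissue (x axis), with the 4 animals IBF22, IBM23, LWF05 and LWM04 in red and the other 12 in grey. Gonad triangles point up for testis and down for ovary. The red points lie under all others in hypothalamus, adenohypophysis, thyroid and backfat, and among the others in gonads.

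On the mean of the 4 non-gonadal tissues of each animal, limma called none of the 63 genes by breed (1.18% of all probesets), and 11 had an unadjusted p under 0.05 (17.5%, compared with 18.3% of all probesets). Within tissues the counts called were also 0, where 0.171% of all probesets were called in hypothalamus, 0.3% in adenohypophysis, 0.575% in thyroid, 0.817% in backfat and 0.05% in gonads. The gonad fit pooled testes and ovaries, the library of IBF25 included, with sex as covariate and a shared breed effect. It does not speak for breed differences within testis or within ovary. An unadjusted p under 0.05 was found for 8 genes in hypothalamus (12.7%, compared with 11.5% of all probesets), 6 in adenohypophysis (9.52%, compared with 16.3%), 13 in thyroid (20.6%, compared with 14.3%), 9 in backfat (14.3%, compared with 21.1%) and 6 in gonads (9.52%, compared with 8.58%). The range of the 4 breed means had a median over the 63 genes of 0.33 in backfat and 0.19 in adenohypophysis. It was wide for some genes: 1.81 for UBE2QL1, 1.58 for UBE2C and 1.26 for UBE2M in backfat, and 2.02 for UBE2QL1 in gonads, where the breed means hold unequal numbers of testes and ovaries. The number of animals limits the precision, and a p that misses the threshold does not show equal levels.

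The smallest p in the 4 tissues was that of PSMA1, an alpha ring gene (p = 0.00118, adjusted p = 0.0650). Its means were 9.47 ± 0.18 in Iberian, 9.40 ± 0.10 in Large White, 9.15 ± 0.07 in Duroc and 9.11 ± 0.04 in Youli (SD, n = 4 animals each). All 8 Iberian and Large White animals (9.28 to 9.69 and 9.30 to 9.54) were above all 8 Duroc and Youli animals (9.05 to 9.21). The next was UBE2E2, at 8.10 ± 0.10 in Iberian and at 7.78 to 7.92 in the means of the others (adjusted p = 0.142). With membership of the 4 animals that stood apart as a covariate, UBE2E2 was called (adjusted p = 0.0263) and PSMA1 had an adjusted p of 0.169, and 1.36% of all probesets were called. PSMA1 was called without IBM24 (adjusted p = 0.0332). In a fit of the 64 single arrays, with animals as random blocks, 8 members were called (12.1% of all probesets): PSMA1 (adjusted p = 4.83e-04), PSMD4, PSMD11, PSMD3, UBE2M, UBE2B, PSME4 and PSMC1. Breed varies between animals only, and this fit used a single within-animal correlation (0.114) for all probesets. Tissues of an animal are not independent replicates of a breed, so these calls are less secure than those on animal means. The widest ranges of 4-tissue breed means belonged to PSMD3 (0.97), UBE2M (0.94) and PSMD4 (0.91), the genes that were low in those animals, and on these means none had an adjusted p under 0.342.

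In backfat PSMD12, a lid subunit, was at 8.95 to 9.34 in the 4 Iberian pigs and at 8.37 to 8.82 in the other 12, without overlap (adjusted p = 0.0559). PSMD12 was called without IBM24 (adjusted p = 0.0460), without LWF06 (adjusted p = 0.0439) and without YLM19 (adjusted p = 0.0399), and had an adjusted p of 0.160 without the 5 backfat arrays with muscle transcripts. UBE2QL1 in backfat was at 4.57 to 5.81 in the Iberian pigs and at 2.63 to 4.80 in 11 of the others, with the YLM19 array at 5.95 (adjusted p = 0.278). In hypothalamus UBE2V2 was at 11.01 to 11.11 in Large White and at 10.72 to 10.94 in the other breeds (p = 0.00246, adjusted p = 0.164).

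Sex differences outside the gonads were not detected. None of the 63 genes was called by sex on the mean of the 4 tissues (0.104% of all probesets), and 1 had an unadjusted p under 0.05 (1.59%, compared with 3.28% of all probesets). The counts called within tissues were 0 in hypothalamus (0.0667% of all probesets), adenohypophysis (0.5%), thyroid (0.0792%) and backfat (0.05%). An unadjusted p under 0.05 was found for 0 genes in hypothalamus (1.72% of all probesets), 4 in adenohypophysis (6.35%, compared with 7.4%), 1 in thyroid (1.59%, compared with 3.8%) and 1 in backfat (1.59%, compared with 2.24%). The differences of males minus females in the 4-tissue mean ran from -0.11 to 0.16, with a median SE of 0.06. The smallest p was that of UBE2Q1 (-0.11, SE 0.04, p = 0.0141, adjusted p = 1). Males (n = 9) had a mean of 9.92 ± 0.10 (SD) and females (n = 7) one of 10.01 ± 0.10.

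Other genes of the pathway were described by 4 further lists. Their counts stand beside 17.7% of all probesets higher and 17.6% lower in testis, 15.8% and 16.9% in thyroid, and 15% and 13.2% between testis and ovary. In testis 8 of 22 measured cullin-RING ligase core genes were higher and 2 lower, 8 of 20 deubiquitinases were higher and 3 lower, 3 of 12 ubiquitin and E1 genes were higher and 2 lower, and 1 of 7 proteasome partners was higher and 1 lower. In thyroid the respective counts were 1 and 5, 1 and 6, 0 and 1, and 2 and 0. CUL2, a cullin scaffold, was 1.28 higher in testis (SE 0.10) and VCP, an ATPase that delivers substrates to the proteasome, 0.68 higher (SE 0.05). CDC20, an activator of the anaphase-promoting complex, was higher in ovary (+3.50, SE 0.22) and testis (+2.82, SE 0.20), like UBE2C. UCHL1, a neuronal deubiquitinase, was higher in hypothalamus (+4.68, SE 0.27) and adenohypophysis (+3.88) and lower in backfat (-6.16), like UBE2QL1 in hypothalamus and backfat. Between testis and ovary 6 cullin-RING genes were higher and 1 lower, and 7 deubiquitinases were higher and 7 lower.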

How the data were processed

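Per the labels and methods, RNA of 80 samples was hybridized to Affymetrix porcine arrays, which the authors normalized in 1 set by GCRMA. The deposited log2 values were used as given, with array medians from 4.67 to 5.04. No detection calls were used. Of 24123 probesets, 124 controls were left out and 23999 tested. Symbols came from the platform annotation: 10069 probesets had 1 symbol, 198 several and 13732 none, and 62 of the 63 symbols matched current reference names. Groups came from sample titles. For 11 of 16 thyroid arrays the title gave another breed or sex than the fields, and 16 of 16 thyroid arrays were nearest to their own animal over 200 probesets chosen in other tissues (lowest r 0.938). That check and the shared animal numbers pair the arrays across tissues.

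Tests used limma 3.58.1 in R 4.3.3 (lmFit, eBayes, two-sided or moderated F) with Benjamini-Hochberg adjustment over all 23999 probesets, and were tested on simulated data. Named genes were up to 4 called members of largest difference per organ and direction, the widest and narrowest ranges per role, up to 5 per direction between testis and ovary, and the 2 of smallest p for breed and sex. Further members were chosen after their values were seen: PSMA3, PSMA6, PSMB2, PSMB4, PSMB5, PSMB7, PSMD3, PSMD8, PSME3, UBE2B, UBE2D2, UBE2F, UBE2K, UBE2L3, UBE2N, UBE2V1, and UBE2QL1, UBE2C, PSMD11, PSMC1 and PSME4 by breed. The members and lists were chosen with earlier results of these data known. Alternatives were another probeset per gene, median centring, quantile normalization, a limit on dim probesets, another size, the animal as replicate block, arrays left out and thyroid arrays assigned by their fields. Sequences were not analysed here.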

Additional observations from a re-analysis of the deposited data

Results flagged for a closer look

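The highest or lowest array was far from the rest of its group in 5 of 80 groups of 4 to 10 arrays examined, and chance gives about 1 in 20. In the library labelled ovary of IBF25, UBE2C was at 6.57 (8.48 in the nearest ovary) and UBE2QL1 at 4.46 (nearest 6.48). PSMG3 in the ovary of DUF13 was at 6.88 (nearest 7.27). PSMD11 in the adenohypophysis of IBF25 was at 8.86, the lowest of the Iberian pigs (nearest 9.08). PSMD12 in the backfat of DUM12 was at 8.43, the lowest of the Duroc pigs (nearest 8.66).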

How the results depend on the processing

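With a size of at least 1 log2 the counts of higher and lower genes fell to 4 and 3 in hypothalamus, 2 and 0 in adenohypophysis, 1 and 3 in thyroid, 3 and 2 in backfat, 3 and 1 in testis and 3 and 0 in ovary, by construction. Median centring gave 12 and 6 in backfat and 12 lower in ovary, and quantile normalization 8 higher in ovary. These organ counts stand without the share of all probesets under the same setting. The mean of all 5 tissues gave 3 genes by sex, since it includes testis and ovary. With 64 arrays and the animal as random replicate block (consensus correlation 0.114), 8 genes were called by breed. In that fit the tissues of an animal are not independent replicates of a breed. With the 4 animals that stood apart as a covariate, 1 gene was called. The cause of these changes was not tested. Leaving out 1 animal at a time gave 30 to 38 genes between testis and ovary, the 30 without DUF13 and the 38 without IBF25, 0 to 1 by breed in the 4 tissues (1 without IBM24) and 0 to 2 in backfat (1 without IBM24, 1 without LWF06 and 2 without YLM19). With the animal as replicate block the organ counts were those without it: 63 by organ, and 14 and 9, 5 and 5, 4 and 22, 5 and 10, 20 and 6, and 5 and 6 in the order of hypothalamus, adenohypophysis, thyroid, backfat, testis and ovary. For genes named by the rule in a comparison, no called difference there changed sign under an alternative run. Other differences of single genes were not followed in this check. The balance of calls in backfat turned with median centring (above). Dim signals limit what UBE2QL1, UBE2C and UBE2D4 show under a value of 5.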
